A study of Homo sapiens with 6 samples.

Results

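The chaperones of the heat shock response were examined in the human melanoma cell line LOX-IMVI as the 10 genes HSPA1A, HSPA1B, DNAJB1, HSPH1, HSPB1, HSP90AA1, BAG3, HSPA8, HSPE1 and HSPD1, chosen by name among the 47432 genes in the deposited tables. All 10 had enough reads to be tested, among 13843 genes in all. To ask which transcripts depend on NFKBIZ, the gene of the nuclear co-regulator IκBζ, the study compared cells carrying a control pLKO.1 lentivirus (shCtrl) with cells carrying 1 hairpin against NFKBIZ in that vector (shNFKBIZ). Both groups were selected with puromycin, the labels give no heat treatment, and each group had 3 libraries, described in the study as independent experiments. Only 1 hairpin was used, so an effect of the hairpin itself and an effect of the lower NFKBIZ level cannot be told apart. By edgeR, NFKBIZ was 3.43-fold lower in shNFKBIZ cells. Its level was 44.5 ± 4.12 TPM in shCtrl and 13.7 ± 0.362 TPM in shNFKBIZ (SD, n = 3).

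Libraries held 22264473 to 24624839 exon reads. Levels are given as TPM (a read count divided by exon length and scaled to the same total in each library), which allows levels of different genes to be compared. Fold changes are edgeR estimates from counts scaled with TMM factors, which correct for composition and are not used in TPM. They can therefore differ from the ratio of the TPM means shown. Of 8 melanocyte markers, 7 were under 1 TPM on average, and SOX10, MLANA and S100B were at 0 in every library. MITF, the lineage factor, was the only one above 1 TPM, at 3.21 TPM in shCtrl and 2.00 TPM in shNFKBIZ. AXL and NT5E, markers of dedifferentiated melanoma, were at 446 and 196 TPM on average, and the summed level of the 6 markers of this state was 698 to 717 TPM in shCtrl and 953 to 965 TPM in shNFKBIZ, although WNT5A of this set averaged 134 TPM in shCtrl and 61.9 TPM in shNFKBIZ. The 5 leukocyte markers reported summed to 96.7 to 100.2 TPM in shCtrl and 198 to 199.6 TPM in shNFKBIZ, nearly all of it CD68, with CD3E at 0 in every library. Fibroblast and pericyte markers summed to 32.9 to 35.6 TPM in shCtrl and 19.5 to 21.7 TPM in shNFKBIZ, with COL1A1 at 31.0 and 8.85 TPM and PDGFRA, in the other direction, at 2.65 and 11.6 TPM. The endothelial and epithelial sets stayed under 2 TPM. The part of these shifts in the chaperone values was not tested. In bulk libraries, fewer cells that express a gene and less RNA per cell cannot be told apart.

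Heat shock proteins hold unfolded proteins in solution, fold them and pass them to degradation. HSP70 proteins bind exposed hydrophobic stretches in a cycle driven by ATP, J domain proteins such as DNAJB1 load them with substrate, and nucleotide exchange factors such as HSPH1 and BAG3 release it. HSP90 acts later, on kinases and other clients that are nearly folded, and HSPD1 with its lid HSPE1 folds proteins inside mitochondria. When proteins unfold, the factor HSF1 binds heat shock elements, inverted repeats of the letters GAA, and raises transcription of the inducible members. HSPA1A, HSPA1B, DNAJB1, HSPH1, HSPB1, HSP90AA1 and BAG3 are counted here as inducible, and HSPA8, HSPE1 and HSPD1 as constitutive, although the latter also respond to stress.

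Promoters of 5 of the genes are shown because HSPA1A and HSPA1B moved together and because HSPA8, HSP90AA1 and HSPD1 are the members that hold a complete element. They are RefSeq windows of 300 bases on GRCh38.p14, and capitals mark each match to GAANNTTC or TTCNNGAA, overlapping matches included. For HSPA1A and HSPA1B they run from 250 bases before the start of the gene to 50 bases from the start on. The windows of HSPA8, HSP90AA1 and HSPD1 lie inside the gene spans given below. HSP90AA1 and HSPD1 each had another window, not shown, without a match. HSPA1A lies at chr6:31815293-31815592 (plus strand), HSPA1B at chr6:31827488-31827787 (plus strand), HSPA8 at chr11:123062087-123062386 (minus strand), HSP90AA1 at chr14:102086995-102087294 (minus strand) and HSPD1 at chr2:197499791-197500090 (minus strand).
HSPA1A: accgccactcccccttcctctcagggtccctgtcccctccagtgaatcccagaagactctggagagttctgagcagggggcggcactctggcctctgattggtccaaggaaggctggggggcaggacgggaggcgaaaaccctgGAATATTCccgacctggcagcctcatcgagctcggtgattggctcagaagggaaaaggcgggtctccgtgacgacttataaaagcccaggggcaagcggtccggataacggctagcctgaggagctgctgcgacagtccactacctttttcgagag
HSPA1B: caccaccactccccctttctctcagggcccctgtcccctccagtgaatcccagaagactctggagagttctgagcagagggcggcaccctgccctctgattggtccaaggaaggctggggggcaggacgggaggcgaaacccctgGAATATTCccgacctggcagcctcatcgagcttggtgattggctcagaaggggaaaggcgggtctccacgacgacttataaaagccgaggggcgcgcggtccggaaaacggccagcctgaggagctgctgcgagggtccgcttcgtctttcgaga
HSPA8: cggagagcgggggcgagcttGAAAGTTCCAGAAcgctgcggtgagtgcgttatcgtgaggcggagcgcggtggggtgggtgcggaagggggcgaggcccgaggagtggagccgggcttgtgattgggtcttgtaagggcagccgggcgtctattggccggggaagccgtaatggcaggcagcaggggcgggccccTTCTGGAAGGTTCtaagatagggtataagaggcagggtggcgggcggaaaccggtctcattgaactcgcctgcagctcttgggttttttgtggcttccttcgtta
HSP90AA1: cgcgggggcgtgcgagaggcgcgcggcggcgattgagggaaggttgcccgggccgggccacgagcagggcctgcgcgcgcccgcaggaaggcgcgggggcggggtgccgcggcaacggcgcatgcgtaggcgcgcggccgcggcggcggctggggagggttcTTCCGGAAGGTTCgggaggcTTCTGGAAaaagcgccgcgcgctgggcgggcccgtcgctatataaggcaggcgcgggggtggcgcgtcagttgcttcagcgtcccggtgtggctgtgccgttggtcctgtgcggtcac
HSPD1: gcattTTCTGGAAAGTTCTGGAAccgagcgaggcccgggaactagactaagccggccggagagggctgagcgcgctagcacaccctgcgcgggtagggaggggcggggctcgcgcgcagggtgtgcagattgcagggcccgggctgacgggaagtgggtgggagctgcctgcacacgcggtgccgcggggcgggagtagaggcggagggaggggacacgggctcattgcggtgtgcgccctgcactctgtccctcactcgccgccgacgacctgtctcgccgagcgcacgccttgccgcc

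The windows of HSPA1A and HSPA1B were identical at 277 of 299 aligned bases (92.6%). Each held 1 match of 2 units, and both matches have the letters GAATATTC. A run of 3 units was GAANNTTCNNGAA or TTCNNGAANNTTC, either of which contains 2 overlapping matches of 2 units. HSP90AA1 held 1 such run. HSPA8 and HSPD1 held 2 each, which are separate in HSPA8 and overlap in HSPD1. Among all 35116 promoter windows, 0.490% held 3 units and 13.5% held 2 units. Of the 14 windows of the 10 chaperones, 8 held a match of 2 units and 3 held a run of 3 units. By gene, 7 had a match of 2 units, and HSPH1, BAG3 and HSPE1 had none. The shares of all windows are counted per window and not per gene, and the chaperones were chosen by name as heat shock genes. A match outside a window was not counted. The HSPE1 window begins at base 197500129, just past the HSPD1 window shown, which ends at 197500090. It shares 204 bases with the other HSPD1 window, which had no match. These matches are letters in a window and not measured binding, and only exact matches were counted. Among the 3 genes with a run of 3 units, HSPA8 was higher and HSP90AA1 and HSPD1 were lower in shNFKBIZ cells, as described next.

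At an adjusted P of at most 0.05 (edgeR quasi-likelihood test with Benjamini-Hochberg adjustment over all genes tested), 5 of the 10 chaperones were higher in shNFKBIZ cells (HSPA1A, HSPA1B, BAG3, HSPA8 and HSPE1), 4 were lower (HSPH1, HSPB1, HSP90AA1 and HSPD1) and DNAJB1 was not called. Of all genes tested, 32.5% were called higher and 32.8% lower. None of the chaperones changed by 2-fold or more, by edgeR or by DESeq2. Of all genes, 8.96% passed both the adjusted P and the 2-fold limit, in either direction. The 9 chaperones with an unadjusted P under 0.05 by edgeR were the same as those called above. The share of all genes under that unadjusted limit was not counted. HSPA1A and HSPA1B passed 1.5-fold, which 10.2% of all genes passed in the upward direction. In CPM, read counts scaled to library size with TMM factors, which correct for composition and are not used in TPM, the groups did not overlap for 10 of the 10 chaperones, and did not overlap for 68.7% of all genes. The median log2 fold change was 0.02 over the chaperones and 0.0043 over all genes tested.

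**Figure D1:**
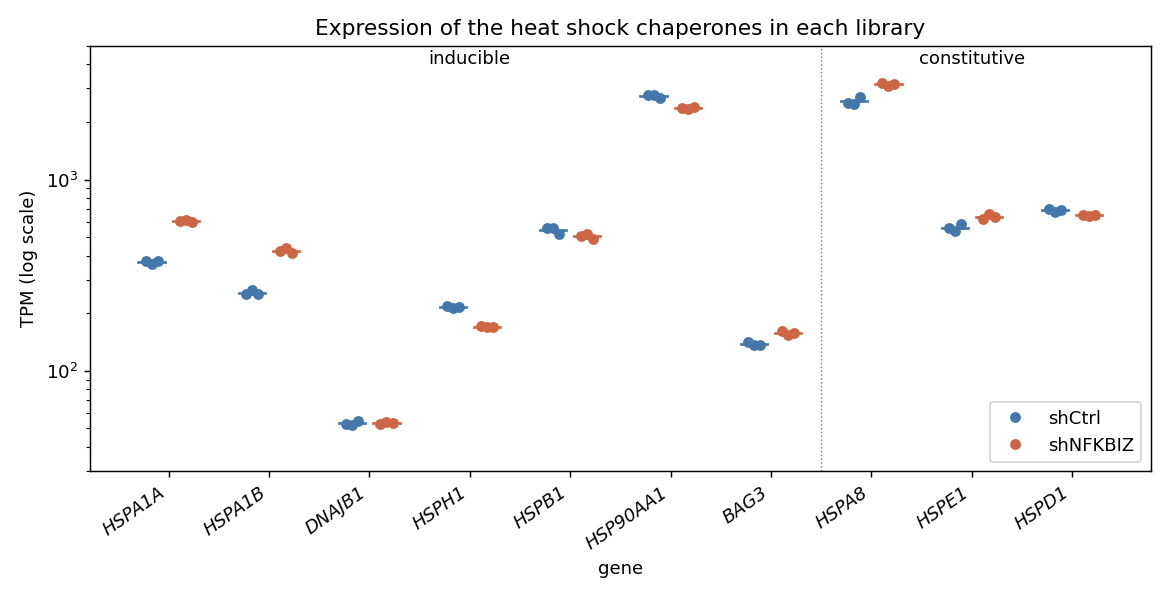
Level of each chaperone in every library, in TPM on a log axis, with 1 point per library and the groups in different colours. HSP90AA1 and HSPA8 lie highest, DNAJB1 near 53 TPM, and the clearest separations are those of HSPA1A, HSPA1B and HSPH1.

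The stress-inducible HSP70 genes had the largest changes. HSPA1A (ENSG00000204389, chromosome 6, 31815543 to 31817946, plus strand, hg38) was at 377, 360.4 and 377 TPM in shCtrl and at 604, 613 and 603 TPM in shNFKBIZ. All 3 shNFKBIZ libraries were above all 3 shCtrl libraries. Its mean was 371 ± 9.47 TPM in shCtrl and 607 ± 5.50 TPM in shNFKBIZ (SD, n = 3). From counts scaled with TMM factors, the log2 fold change was 0.63 (SE 0.0328, edgeR adjusted P 2.53e-13) or 1.54-fold. HSPA1B (ENSG00000204388, chromosome 6, 31827738 to 31830254, plus strand), which encodes nearly the same protein from a copy 12195 bases away, was at 253, 264 and 252 TPM in shCtrl and at 422, 438 and 411 TPM in shNFKBIZ. It rose by 0.64 on the log2 scale (SE 0.0363, edgeR adjusted P 9.87e-13), again with no overlap. A change of this size in either direction was found in 21.9% of genes for HSPA1A and in 21.1% for HSPA1B.

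Reads of the HSPA1 genes cannot be fully assigned, since only 25.1 to 27.0% of the exon reads of HSPA1A and 24.8 to 27.1% of those of HSPA1B mapped to 1 place. Summed into 1 feature, they were at 627 ± 2.98 TPM in shCtrl and 1031 ± 18.8 TPM in shNFKBIZ (SD, n = 3). From counts scaled with TMM factors, the sum rose by 0.63 on the log2 scale (SE 0.0314, edgeR adjusted P 9.55e-14). HSPA1A made up 56.6 to 58.8% of the pair in shCtrl and 57.2 to 58.4% in shNFKBIZ. With unique reads alone these shares were 56.4 to 59.7% and 57.7 to 58.3%, so the ranges overlapped with either kind of read. HSPA1B also overlaps, on the same strand, an unnamed long non-coding gene that had 0 to 238 exon reads in a library. That gene had a log2 fold change of 1.41, and the part of this overlap in the HSPA1B reads was not tested.

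HSPA8 (ENSG00000109971, chromosome 11, 123057489 to 123063230, minus strand), the constitutive HSP70 of the cytosol, was at 2512, 2480.0 and 2704 TPM in shCtrl and at 3207, 3077 and 3180.1 TPM in shNFKBIZ. Its mean was 2565 ± 121 and 3155 ± 68.3 TPM (SD, n = 3), and it rose by 0.22 on the log2 scale (SE 0.0359, edgeR adjusted P 1.64e-05). It ranked 36 among all genes by mean level in shCtrl. The ratio of the HSPA1 genes to HSPA8 was 0.251, 0.252 and 0.232 in shCtrl and 0.320, 0.342 and 0.319 in shNFKBIZ. The inducible HSP70 genes therefore gained on the constitutive one by 0.42 on the log2 scale, without overlap. With 3 libraries against 3 the exact two-sided permutation test cannot go below 0.1, the value it gave here (0.133 adjusted over the 4 ratios tested).

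Among the partners of HSP70, the nucleotide exchange factors went in opposite directions. HSPH1 (ENSG00000120694, chromosome 13, 31134973 to 31162388, minus strand), the inducible HSP110, was at 219, 214 and 216 TPM in shCtrl and at 172, 169 and 169.6 TPM in shNFKBIZ. Every shNFKBIZ library was below every shCtrl library, and the log2 fold change of -0.43 (SE 0.0328, edgeR adjusted P 1.89e-10), or 1.34-fold lower, was the largest decrease among the chaperones. HSPA4, its constitutive relative, was also lower (272 ± 7.50 against 229 ± 1.11 TPM, SD, n = 3, log2 fold change -0.33). The ratio of HSPH1 to HSPA4 was 0.781, 0.792 and 0.815 in shCtrl and 0.757, 0.741 and 0.739 in shNFKBIZ, a log2 difference of -0.09 without overlap (exact permutation p 0.1, 0.133 adjusted).

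BAG3 (ENSG00000151929, chromosome 10, 119651380 to 119677819, plus strand), which links HSP70 to small heat shock proteins and autophagy, was at 141, 136 and 137 TPM in shCtrl and at 162, 154 and 158 TPM in shNFKBIZ. The groups did not overlap, and the log2 fold change was 0.11 (SE 0.0406, edgeR adjusted P 0.0194). The call was lost without shCtrl library 3 (0.09, adjusted P 0.0781), without shNFKBIZ library 1 (0.09, adjusted P 0.125), without shNFKBIZ library 3 (0.11, adjusted P 0.0584), and with intron reads added to exon reads (0.09, adjusted P 0.0619). DNAJB1 (ENSG00000132002, chromosome 19, 14514769 to 14560391, minus strand), the J protein induced together with HSP70, was at 52.9, 52.4 and 54.3 TPM in shCtrl and at 52.8, 54.3 and 53.7 TPM in shNFKBIZ. These TPM values overlapped. Its log2 fold change was -0.07 (SE 0.0361, edgeR adjusted P 0.0899, 95% interval -0.15 to 0.0040), and it overlaps TECR in the annotation.

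HSP90AA1 (ENSG00000080824, chromosome 14, 102080742 to 102139699, minus strand), the inducible cytosolic HSP90, was at 2774, 2758 and 2677 TPM in shCtrl and at 2369.6, 2347 and 2404 TPM in shNFKBIZ. It ranked 35 in shCtrl, next to HSPA8, and in shNFKBIZ cells it fell by 0.29 on the log2 scale (SE 0.0356, edgeR adjusted P 3.36e-07), without overlap. HSP90AB1, the constitutive form, was lower too, at 4741 ± 70.6 TPM in shCtrl and 3996 ± 35.1 TPM in shNFKBIZ (SD, n = 3, log2 fold change -0.33). Their ratio was 0.578, 0.591 and 0.563 in shCtrl and 0.598, 0.582 and 0.602 in shNFKBIZ. These ranges overlapped, with a log2 difference of 0.04 (exact permutation p 0.2).

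HSPB1 (ENSG00000106211, chromosome 7, 76302673 to 76304295, plus strand), a small heat shock protein that holds unfolded proteins without ATP, was at 559, 560.4 and 517 TPM in shCtrl and at 504, 522 and 490.2 TPM in shNFKBIZ. The TPM ranges overlapped, whereas the CPM ranges did not, at 219.9 to 246 in shCtrl and 203 to 210.0 in shNFKBIZ. On both scales, shCtrl library 3 was the lowest of its group. The log2 fold change was -0.19 (SE 0.0407, edgeR adjusted P 0.000281).

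The mitochondrial partners moved apart. HSPE1 (ENSG00000115541, chromosome 2, 197500140 to 197503449, plus strand) was at 559.7, 538 and 586 TPM in shCtrl and at 619.6, 663 and 641 TPM in shNFKBIZ. It rose by 0.11 on the log2 scale (SE 0.0341, edgeR adjusted P 0.00719), without overlap. HSPD1 (ENSG00000144381, chromosome 2, 197486584 to 197516737, minus strand), the folding chamber that HSPE1 closes, was at 706, 679 and 696 TPM in shCtrl and at 649, 646 and 653 TPM in shNFKBIZ. It fell by 0.18 on the log2 scale (SE 0.0329, edgeR adjusted P 7.12e-05), also without overlap. The ratio of HSPE1 to HSPD1 was 0.793, 0.792 and 0.842 in shCtrl and 0.955, 1.03 and 0.981 in shNFKBIZ, a log2 difference of 0.29 (exact permutation p 0.1, 0.133 adjusted). HSPE1 lies inside the annotated span of HSPD1 on the other strand. Counting ignored strand, so this overlap may exchange reads within the pair, which was not tested. Unique reads made up 72.6 to 74.5% for HSPE1 and 100% for HSPD1. Unique reads are those that map to 1 place, so these shares do not measure exchange of reads between overlapping genes. HSPE1 also overlaps HSPE1-MOB4 on the same strand, which had 290 to 383 exon reads in a library.

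**Figure D2:**
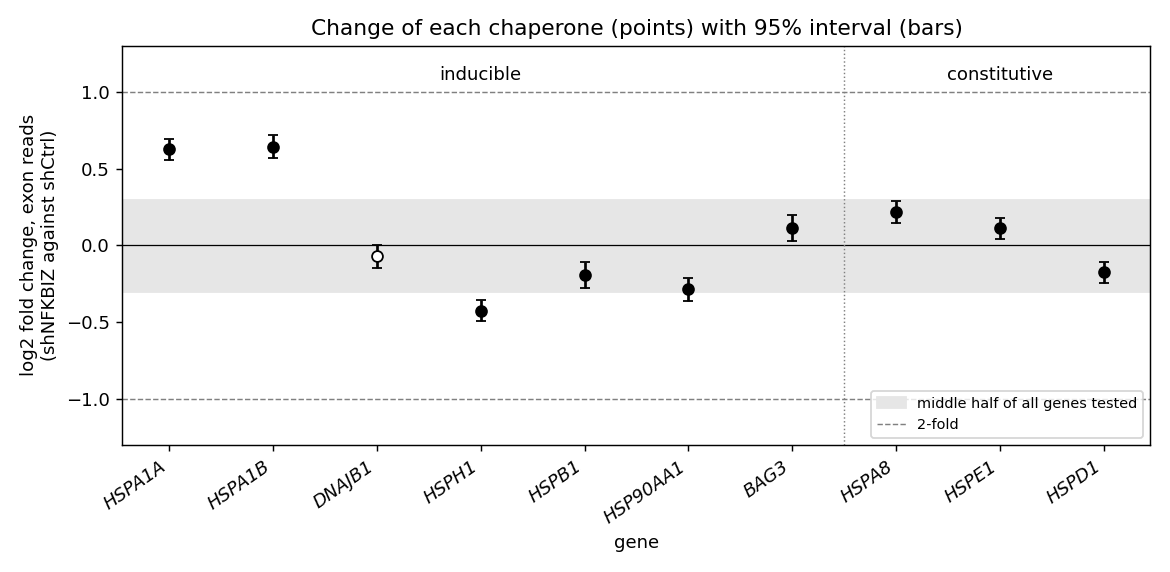
Log2 fold change in exon reads (shNFKBIZ against shCtrl) of each chaperone with its 95% interval, by gene, where the open point was not called, the grey band spans the quartiles of all genes tested and dashed lines mark 2-fold. HSPA1A and HSPA1B stand near 0.63, HSPH1 at -0.43, and the interval of DNAJB1 reaches past 0.

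**Figure D3:**
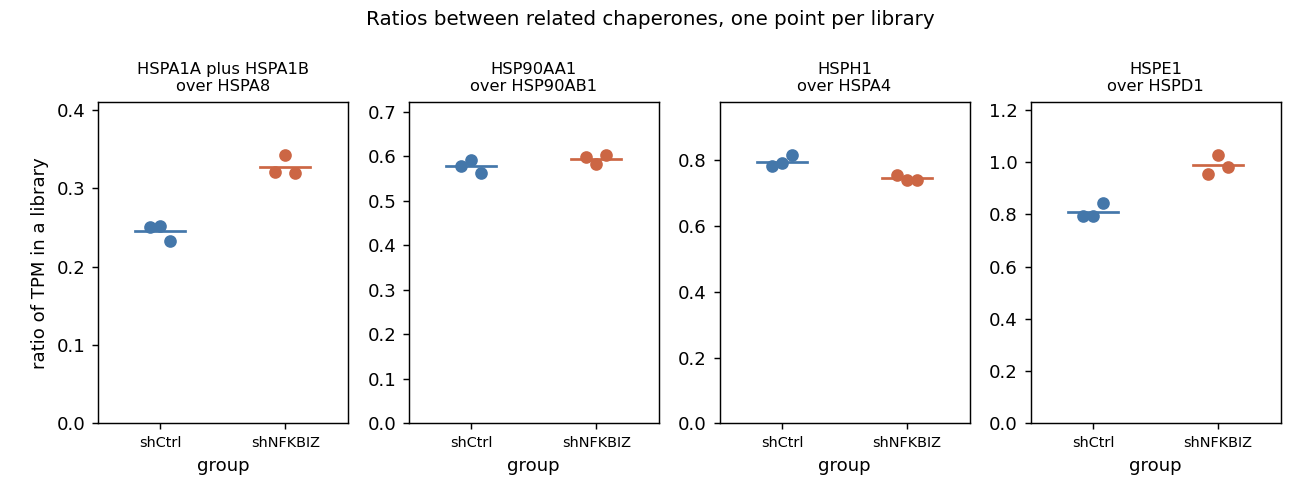
Ratio of TPM between related chaperones, 1 point per library, by group, with each axis starting at 0. The ratios of the HSPA1 genes to HSPA8 and of HSPE1 to HSPD1 are higher in all 3 shNFKBIZ libraries, and that of HSP90AA1 to HSP90AB1 overlaps between groups.

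Inducible and constitutive chaperones did not divide by direction. Of the 7 inducible genes, 3 were higher, 3 were lower and 1 was not called, with a median log2 fold change of -0.07. Of the 3 constitutive genes, 2 were higher and 1 was lower, with a median of 0.11. The quartiles over all genes tested were -0.31 and 0.29, so 7 of the 10 chaperones lay between them and HSPA1A, HSPA1B and HSPH1 lay outside. The direction of small changes depends on scaling: with library size alone in place of TMM factors, the median of all genes moved from 0.0043 to 0.09 and the share of calls that were higher went from 49.7 to 60.8%. DNAJB1 then had a log2 fold change of 0.02, which was also the median of the inducible genes, and the median of the constitutive genes was 0.20. The other 9 chaperones kept their direction and their call, but 4 of the small changes moved by over 1.5 times, to -0.10 for HSPB1, -0.09 for HSPD1, 0.20 for HSPE1 and 0.20 for BAG3.

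Intron reads, which come largely from transcripts not yet spliced, were compared next. HSPA1A, HSPA1B and HSPB1 had 0 to 3 intron reads in a library and were not tested. Of the 7 chaperones tested, 4 were higher in shNFKBIZ cells, 0 were lower and 3 were not called (edgeR), and 19.3% of all genes tested on introns were higher. The whole libraries also held more intron reads in shNFKBIZ, 7.63 to 8.15% of gene reads against 7.16 to 7.46% in shCtrl, and the part of this in the result was not tested. HSPE1 had 45, 58 and 71 intron reads in shCtrl and 127, 108 and 132 in shNFKBIZ, a log2 fold change of 0.99 (SE 0.149, edgeR adjusted P 1.5e-06). HSPA8 had 49, 65 and 54 against 103, 95 and 82 (0.65, SE 0.149, edgeR adjusted P 0.000653). Both genes were higher in exon and in intron reads. HSPA8 overlaps snoRNA genes and, on the other strand, an unnamed long non-coding gene with 6 to 15 exon reads in a library.

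HSP90AA1 and HSPD1 went the other way in introns than in exons. HSP90AA1 had 106, 122 and 121 intron reads in shCtrl and 149, 180 and 171 in shNFKBIZ, a log2 fold change of 0.43 (SE 0.109, edgeR adjusted P 0.00183). Its exon reads numbered 68800 to 90355 in a library, and it overlaps WDR20 on the other strand. The part of this overlap in its intron reads was not tested. HSPD1 had 447, 407 and 429 against 593, 583 and 569 (0.35, SE 0.0687, edgeR adjusted P 7.94e-05). Intron reads of HSPD1 and HSPE1 share the overlap noted above. HSPH1 had 168, 168 and 165 intron reads against 177, 171 and 186 (log2 fold change 0.0020, edgeR adjusted P 0.988), while its exon reads fell.

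The difference between the exon and the intron change was tested as an interaction with the library as a block. The exon change was below the intron change for 5 of 7 chaperones, and for 15.7% of all genes tested in this way. The difference was -0.86 for HSPE1 (edgeR adjusted P 3.97e-07), -0.70 for HSP90AA1 (adjusted P 1.38e-07), -0.52 for HSPD1 (adjusted P 3.99e-09) and -0.42 for HSPH1 (adjusted P 0.000486). For HSPA8 it was -0.42 (adjusted P 0.0218), a call that was lost when shCtrl library 1 (-0.34), shCtrl library 3 (-0.38), shNFKBIZ library 1 (-0.34) or shNFKBIZ library 2 (-0.40) was left out. BAG3 (0.31, edgeR adjusted P 0.0522) and DNAJB1 (-0.12, edgeR adjusted P 0.808) were not called.

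**Figure D4:**
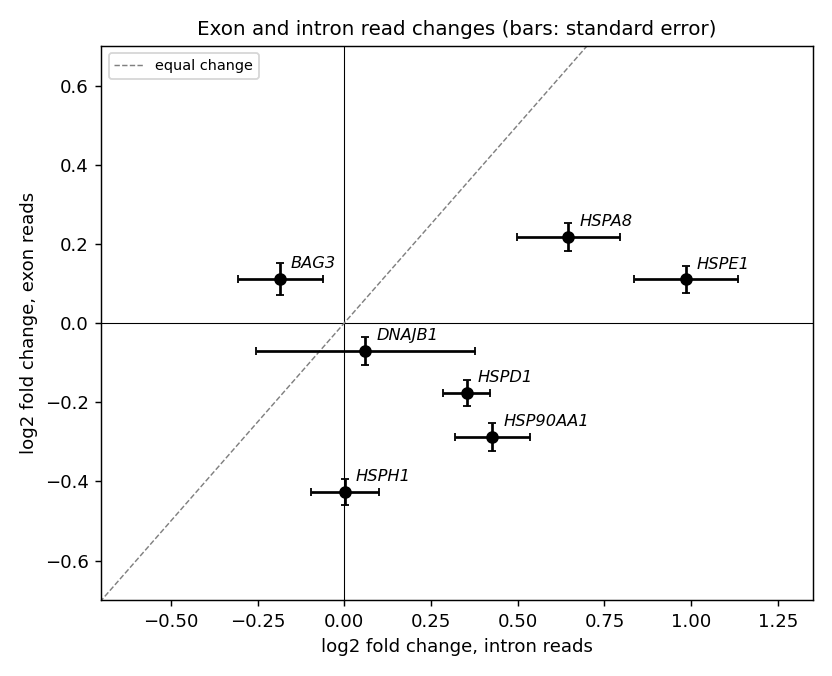
Log2 fold change in exon reads against that in intron reads for the 7 chaperones with enough intron reads, with standard errors as bars and a dashed line of equal change. HSP90AA1 and HSPD1 lie to the right of 0 on the intron axis and below 0 on the exon axis, and HSPE1 lies farthest to the right.

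The transcription factors of the response were not called. HSF1, the main heat shock factor, was at 121 ± 4.38 TPM in shCtrl and 132 ± 4.84 TPM in shNFKBIZ (SD, n = 3, log2 fold change 0.04, edgeR adjusted P 0.341), and with library size alone it was called higher at 0.13. HSF2 had a log2 fold change of -0.0055 (edgeR adjusted P 0.957). Of 8 factors and regulators tested, 1 was higher and 4 were lower, with SIRT1, a deacetylase that acts on HSF1, at -0.65.

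Most other chaperone families held genes called in both directions. Of 8 other HSP70 and HSP110 genes tested, 2 were higher and 2 were lower, with HSPA13 at -0.48. Of 19 HSP90 proteins and co-chaperones, 5 were higher and 9 were lower, with CDC37L1 at 0.94. Of 19 other J domain proteins, 7 were higher and 8 were lower, with DNAJB4 at 0.63. Of 10 exchange factors, 4 were higher and 4 were lower, with BAG6 at -0.45. Among small heat shock proteins, 9 of 10 had too few reads to be tested and the remaining one was not called, except with library size alone, where it was higher.

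Of 14 subunits of the cytosolic chaperonin TRiC and of prefoldin, 3 were higher and 8 were lower, with a median of -0.22 (-0.13 with library size alone) and with CCT3 at -0.41. Of 11 other mitochondrial chaperones and proteases, 3 were higher and 4 were lower, with LONP1 at -0.51. Of 15 chaperones of the endoplasmic reticulum, 4 were higher and 6 were lower, with CRELD2 at 0.96. The background for these counts is again 32.5% higher and 32.8% lower among all genes.

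Of 20 other heat-inducible genes tested, 6 were higher and 8 were lower, with a median of 0.00026. Some of them are also in the lists above, which share other genes too, so the counts are not independent. Past 2-fold were 3 of these heat-inducible genes, and 8.96% of all genes. HMOX1, which degrades heme and is induced by oxidative as well as heat stress, rose by 3.81 on the log2 scale, and the stress factor ATF3 fell by 1.03. The third was HSPA6, a strictly inducible HSP70 named after its values were seen. Its exon reads numbered 7, 7 and 12 in the shCtrl libraries and 27, 24 and 22 in the shNFKBIZ libraries (log2 fold change 1.46, SE 0.317, edgeR adjusted P 0.000363) and was thus higher, like HSPA1A and HSPA1B, but at very low counts. The following were also named after their values were seen. Among J proteins, DNAJA1 rose by 0.50 and DNAJB6 fell by 0.53. The HSP90 co-chaperones FKBP4 and STIP1 fell by 0.61 and 0.32, and the TRiC subunits CCT7 and CCT8 fell by 0.38 and 0.39. In the endoplasmic reticulum, HSPA5 and HSP90B1 fell by 0.33 and 0.47 and SERPINH1, the collagen chaperone, rose by 0.56. HSPA9, the mitochondrial HSP70, rose by 0.14.

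**Figure D5:**
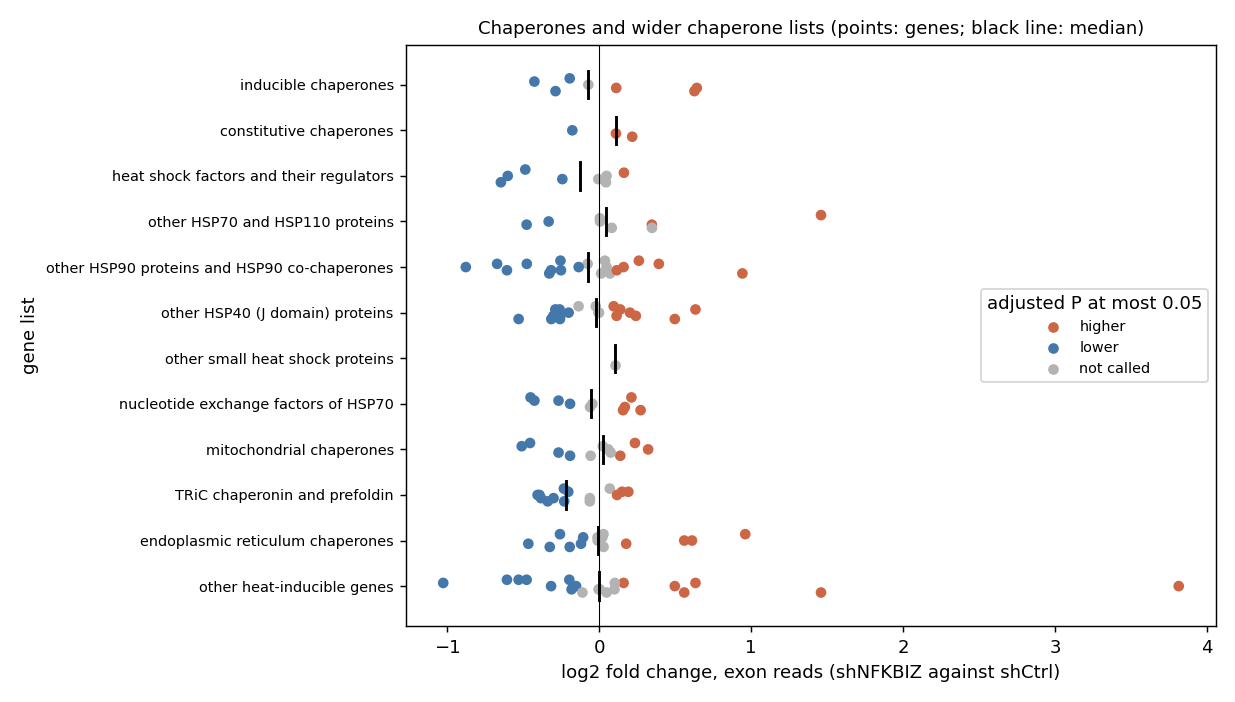
Log2 fold change in exon reads of every tested gene in each list, coloured by the call at an adjusted P of at most 0.05, with the list median as a black line. Most lists hold genes on both sides of 0, HMOX1 stands alone at 3.81, and the TRiC and prefoldin median is -0.22.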

How the data were processed

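RNA-seq was analysed in 6 LOX-IMVI libraries, 3 per group, grouped by their titles. The authors mapped reads to hg38 (GRCh38 per the labels) in CLC Genomics Workbench, using the Ensembl gene annotation and no strand, and deposited whole-number counts of exon and intron reads per gene, as total reads (which include fragments that map to several places) and unique reads. The sample labels and the methods give different sequencing providers, so none is named. TPM was calculated again from the exon counts and lengths. It matched the deposited values above 1 TPM to a relative difference of at most 4.96e-11.

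Total exon reads were filtered (filterByExpr), scaled with TMM factors and tested over all genes by edgeR 4.0.16 (quasi-likelihood test, two-sided, R 4.3.3). P values were adjusted by Benjamini-Hochberg. The standard error is the size of the log2 fold change divided by the square root of F. The same fit was applied to intron reads, and ratios were compared by exact permutation. The scripts were tested on simulated data. Motifs were searched in RefSeq promoter windows.

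The chaperones and gene lists were chosen with earlier results of these data known. Genes named outside the chaperones were HSP90AB1, HSPA4, HSF1, HSF2, NFKBIZ, and from each list the genes past an adjusted P of 0.05 and 2-fold with a mean of at least 50 exon reads and no overlap in CPM, or otherwise the called gene with the largest change at that mean. HSPA6 and the genes so described were added after their values were seen, as was the motif search. The fit was repeated with library size alone, RLE factors, at least 10 reads in every library, no filter, DESeq2 1.42.0, unique reads, total gene reads, a replicate block and leaving out each library. One marker gene of the lists is not reported here. Same-numbered libraries were not paired (correlations of deviations 0.0207, 0.0561 and 0.0288).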

Additional observations from a re-analysis of the deposited data

How the results depend on the processing

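The counts of 5 chaperones higher and 4 lower were the same with RLE factors, library size alone, other filters, DESeq2, unique reads and the replicate block. With total gene reads 4 were higher and 5 lower, DNAJB1 being called at -0.08. Leaving out each library gave 4 to 5 higher and 4 lower. With a limit of 1.5-fold, 2 chaperones passed, against 0 at 2-fold. Of 140 chaperone values under 14 alternatives, 134 kept their direction and call. With library size alone the log2 fold change of DNAJB1 was 0.0185, that of HSF2 0.0839, and the exon against intron difference of BAG3 was called at 0.33.

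Without single libraries, values near 0 changed sign: HSF2 ranged from -0.0486 to 0.0202, intron reads of DNAJB1 from -0.11 to 0.38 and of HSPH1 from -0.0357 to 0.0595, and the exon against intron difference of DNAJB1 from -0.44 to 0.0487. The median of the inducible genes minus that of the constitutive genes was -0.18, and -0.20 to -0.16 without single libraries. Counts of the wider lists under the alternatives were added after the data were seen. With library size alone, higher calls went to 3 heat shock factors and regulators, 8 HSP90 proteins and co-chaperones, 9 endoplasmic reticulum chaperones, 10 heat-inducible genes and 1 small heat shock protein. With no filter, 1 small heat shock protein was lower, and with at least 10 reads in every library 1 other HSP70 or HSP110 gene was higher. The causes were not tested. Intron counts of DNAJB1 (11 to 21 reads) and exon counts of HSPA6 limit what could be detected for them.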
